A study of Mus musculus with 2 samples.

Results

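The 10 genes described here encode scavenger and clearance receptors of the liver sinusoid, Stab1, Stab2, Mrc1, Fcgr2b, Msr1, Cd36, Scarb1, Clec4g, Lyve1 and Gpihbp1. They were chosen by name and not by a measured value, and all 10 are among the 19219 genes listed in both count tables. The study compared non-parenchymal liver cells of 1 normal and 1 fibrotic C57BL/6 mouse by 10x single-cell RNA-seq, with 1 library per mouse. The fibrotic mouse had been injected with 0.6 µl/g of a 15% solution of CCl4, a hepatotoxin, 2 times weekly over 6 weeks and was taken 48 h after its last dose, and the normal mouse had been given the olive oil vehicle. The ages of the mice are not given in the sources used here. Both libraries hold non-parenchymal cells from the upper and middle layers of a density gradient, so a difference between them is a difference between 2 mice and has no replicate check.

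Liver sinusoidal endothelial cells (LSECs) line the sinusoids with a fenestrated wall and are among the most active endocytic cells of the body. Together with Kupffer cells, the resident macrophages of the sinusoid, they remove waste macromolecules, immune complexes and modified lipoproteins from blood. Blood passes from the portal vessels through zone 1 and then zones 2 and 3 to the central vein, and LSECs along this path differ in the receptors they carry.

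Cells were grouped within each library from marker genes that include none of the 10 receptors, and the receptors were held out of the clustering. The normal library gave 260 zone 1-like and 338 zone 2/3-like LSECs within 1682 LSEC-like cells, 375 portal vessel-like, 299 central vein-like and 140 Kupffer-like cells. The fibrosis library gave 470, 362, 1060, 109, 225 and 242 cells of the same groups in the same order. The 8 Kupffer markers summed to 197 UMIs per 10000 in normal Kupffer-like cells and to 5.29 in normal LSEC-like cells, while the 17 endothelial markers summed to 13.2 and 247. All 17 endothelial markers had UMIs in Kupffer-like cells of both libraries, and all 8 Kupffer markers in LSEC-like cells. Endothelial markers were also found in lymphoid cells, which should lack them, at 13.8% of their LSEC-like level in the normal library and 19.6% in the fibrosis library. Lymphoid values are therefore given below as a background, which free RNA in the droplets can give. The libraries share 15 cell barcodes, and median depth was 4226 UMIs in the 7471 normal cells kept and 5775.5 in the 6132 fibrosis cells kept.

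Levels are UMIs of a gene per 10000 UMIs of the group, with exact Poisson intervals, and ratios of levels carry exact conditional intervals, all at 95% and for counting error only. No test between conditions or groups was possible with 1 library per condition, so a ratio of at least 2 or at most 0.5 is counted where a gene reached 0.5 UMIs per 10000 in either group. A count of a single gene's UMIs depends on its 3′ end and length, so levels are compared between groups and not between genes.

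The promoters of Stab1, Stab2, Clec4g and Cd36 are shown because the first 3 were high in LSECs of both libraries and Cd36 was past 2-fold between the libraries in both zone 2/3-like LSECs and Kupffer-like cells. The sequences are the 250 bases before each RefSeq start (GRCm38.p6), on the strand of the gene, with capitals for matches on either strand to 4 motifs. These were the ETS core AGGAAG, the GATA core in the forms AGATA and also TGATA, the nuclear receptor half-site AGGTCA, and the AP-1 site in the forms TGACTCA and also TGAGTCA. The Stab1 stretch lies at chr14:31168642-31168891, that of Stab2 at chr10:87007943-87008192, that of Clec4g at chr8:3720652-3720901 and that of Cd36 at chr5:17835897-17836146, each on the minus strand.
Stab1: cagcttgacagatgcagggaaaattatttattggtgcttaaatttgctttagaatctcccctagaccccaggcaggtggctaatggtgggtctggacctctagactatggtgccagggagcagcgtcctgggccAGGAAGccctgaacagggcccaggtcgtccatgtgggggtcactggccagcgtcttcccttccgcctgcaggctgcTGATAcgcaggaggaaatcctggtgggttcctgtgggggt
Stab2: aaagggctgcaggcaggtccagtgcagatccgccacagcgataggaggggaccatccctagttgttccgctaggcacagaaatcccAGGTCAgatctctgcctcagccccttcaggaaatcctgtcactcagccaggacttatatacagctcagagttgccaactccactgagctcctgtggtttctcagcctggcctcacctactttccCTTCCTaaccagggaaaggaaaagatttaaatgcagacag
Clec4g: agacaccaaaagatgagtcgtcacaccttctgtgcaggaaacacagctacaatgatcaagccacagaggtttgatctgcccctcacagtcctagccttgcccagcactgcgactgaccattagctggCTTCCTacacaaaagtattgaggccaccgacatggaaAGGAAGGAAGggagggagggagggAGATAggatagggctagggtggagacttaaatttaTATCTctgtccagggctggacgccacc
Cd36: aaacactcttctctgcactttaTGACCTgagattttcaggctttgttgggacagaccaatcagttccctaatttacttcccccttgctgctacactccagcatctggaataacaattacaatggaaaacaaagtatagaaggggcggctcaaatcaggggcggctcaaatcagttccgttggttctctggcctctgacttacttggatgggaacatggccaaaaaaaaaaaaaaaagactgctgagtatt
The ETS core was found 1 time in the Stab1 stretch, 1 time in that of Stab2 and 3 times in that of Clec4g, where 2 of the matches overlap, and 0 times in that of Cd36. Of 32851 mouse promoters of the same length, 29.5% held it. The GATA core was found in the stretches of Stab1 and Clec4g and in 40.03% of all promoters, the nuclear receptor half-site in those of Stab2 and Cd36 and in 14.02%, and the AP-1 site in none of the 4 and in 4.46%. Letters of this kind are common, and a match is not evidence of a bound site. The promoter table matched 6 of the 10 receptors, with Mrc1 and Fcgr2b as the others, and did not list Msr1, Scarb1, Lyve1 and Gpihbp1. Mrc1 and Fcgr2b were also high in LSECs of both libraries, so the stretches shown are a selection. The ETS core was found 3 times in the stretch of Mrc1 and 0 times in that of Fcgr2b, which held no GATA core either.

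Endothelial cells held most of the UMIs of 9 receptors in the normal library, and a smaller share of each in the fibrosis library. In the normal library the endothelial class held between 65.4% (Msr1) and 75.1% (Gpihbp1) of the UMIs of these 9, against 32.04% of the UMIs of all genes. Scarb1, the receptor for high-density lipoprotein, stood below them with 42.4%. In the fibrosis library the range over the same 9 was 44.8% (Cd36) to 61.9% (Lyve1), with 30.96% for Scarb1 and 26.9% for all genes. The myeloid class held 4.18% of normal and 30.8% of fibrosis Cd36 UMIs. For Stab1 its share was 3.02% and 21.7%, and for Msr1 13.2% and 32.5%. The myeloid class also held more of everything in the fibrosis library, 25.97% of all UMIs against 8.76%, so these shares follow the makeup of each library as well as the level per cell.

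**Figure D1:**
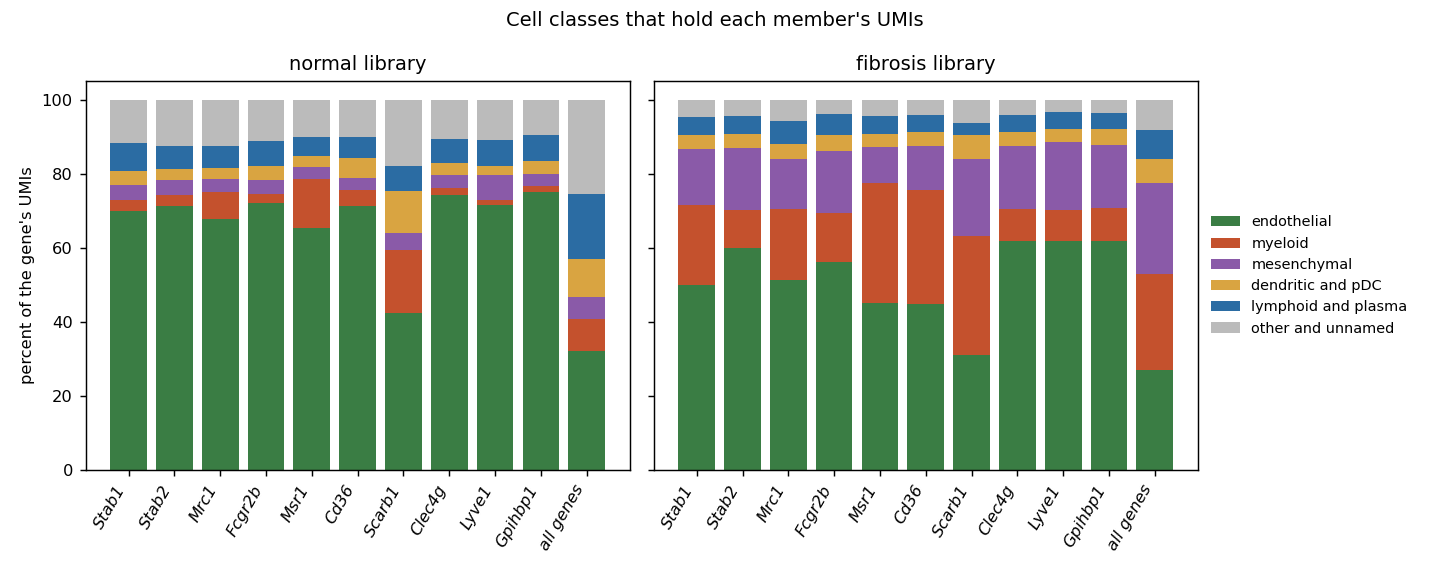
Share of each receptor's UMIs (percent, y axis) held by each cell class in the normal (left) and fibrosis (right) library, with all genes as the last bar. Endothelial cells held 65.4% to 75.1% of 9 receptors in the normal library, and the myeloid part of Cd36 was 4.18% in the normal library and 30.8% in the fibrosis library.

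Across the zones of the normal library, Msr1 and Cd36 had the largest ratios toward the portal side, and Stab1 and Stab2 the smallest. Msr1, a class A scavenger receptor for modified lipoproteins best known from macrophages (chr8:39581685-39642673), was counted at 10.6 (95% interval 10.1 to 11.1) UMIs per 10000 in zone 1-like LSECs and at 1.57 (95% interval 1.41 to 1.75) in zone 2/3-like LSECs, a ratio of 6.75 (6.01 to 7.596). Cd36, a class B scavenger receptor that takes up fatty acids and oxidised lipoproteins (chr5:17781690-17888801), was counted at 10.7 (95% interval 10.3 to 11.2) and 4.68 (95% interval 4.399 to 4.98), a ratio of 2.29 (2.13 to 2.48). These were 2 receptors of 10 past 2-fold, both higher in zone 1-like cells, where 1.67% of the 4324 genes counted were past 2-fold in that direction. After each cell was thinned to 1000 UMIs, 64.6% (58.5 to 70.4) of zone 1-like and 12.4% (9.104 to 16.4) of zone 2/3-like cells held a Msr1 UMI, beside 4.87% of lymphoid cells. Median depths were 6486.5, 5847 and 3143 UMIs per cell. The share in zone 2/3-like cells was thus above that of the lymphoid background by a smaller margin than the share in zone 1-like cells.

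Stab1 (stabilin-1, chr14:31139013-31168641) and Stab2 (stabilin-2, chr10:86841198-87008025) clear hyaluronan, advanced glycation products and other waste molecules. Stab1 was counted at 9.69 (95% interval 9.24 to 10.2) UMIs per 10000 in normal zone 1-like LSECs and 17.01 (95% interval 16.5 to 17.6) in normal zone 2/3-like LSECs. Stab2 was counted at 10.2 (95% interval 9.75 to 10.7) and 17.9 (95% interval 17.3 to 18.5). The ratios of zone 1-like over zone 2/3-like were 0.5697 (0.538 to 0.603) for Stab1 and 0.571 (0.5397 to 0.604) for Stab2, so both stabilins were lower on the portal side, short of the 2-fold limit. Mrc1, the mannose receptor, had a ratio of 0.7798 (0.748 to 0.813) and Fcgr2b, the inhibitory Fc receptor that takes up immune complexes, 0.821 (0.787 to 0.857), both below 1 beyond counting error. Gpihbp1, which carries lipoprotein lipase to the capillary lumen, was on the other side with 1.41 (1.34 to 1.48). Clec4g, a C-type lectin of sinusoidal cells also called LSECtin, had 0.925 (0.891 to 0.9596). Lyve1, a hyaluronan receptor of LSECs and lymphatic endothelium, had 0.953 (0.866 to 1.05) and Scarb1 0.834 (0.675 to 1.03), and both intervals held 1. The choice of cells moved the size of the 2 large ratios. Over the alternatives run, the Msr1 ratio lay between 4.24 with the receptors among the clustering genes and 14.2 without the cells of highest doublet score, and that of Cd36 between 1.66 and 2.94 under the same alternatives.

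In the fibrosis library Msr1 was again higher in zone 1-like LSECs and the Cd36 ratio was close to 1. Msr1 was counted at 7.86 (95% interval 7.59 to 8.13) UMIs per 10000 in zone 1-like LSECs and 2.77 (95% interval 2.59 to 2.96) in those of zone 2/3, a ratio of 2.84 (2.63 to 3.06) that lay between 2.45 and, with the lymphoid level subtracted, 5.295 over the alternatives. Cd36 was counted at 18.5 (95% interval 18.1 to 18.9) and 15.6 (95% interval 15.1 to 16.00), a ratio of 1.19 (1.15 to 1.23). Msr1 was the 1 receptor past 2-fold, where 1.02% of 4298 genes were past it in that direction. The stabilins kept ratios below 1, with 0.747 (0.716 to 0.779) for Stab1 and 0.708 (0.6796 to 0.738) for Stab2. Lyve1 had 0.745 (0.712 to 0.781) here, but 1.04 without a zone 1-like sub-cluster that carries portal vessel markers, an alternative chosen after seeing the data, and 0.4696, past 2-fold, with the receptors among the variable genes. That sub-cluster had 4.03 UMIs per 10000 of Lyve1 and the remaining zone 1-like cells 12.1. The zone groups were themselves less far apart in this library. The 8 zone 1 markers were 3.07 times as high in zone 1-like as in zone 2/3-like cells of the normal library and 2.29 times in the fibrosis library, and the 10 zone 2/3 markers 2.21 and 1.58 times in the other direction. The part of this in the smaller ratios of Msr1 and Cd36 was not tested.

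**Figure D2:**
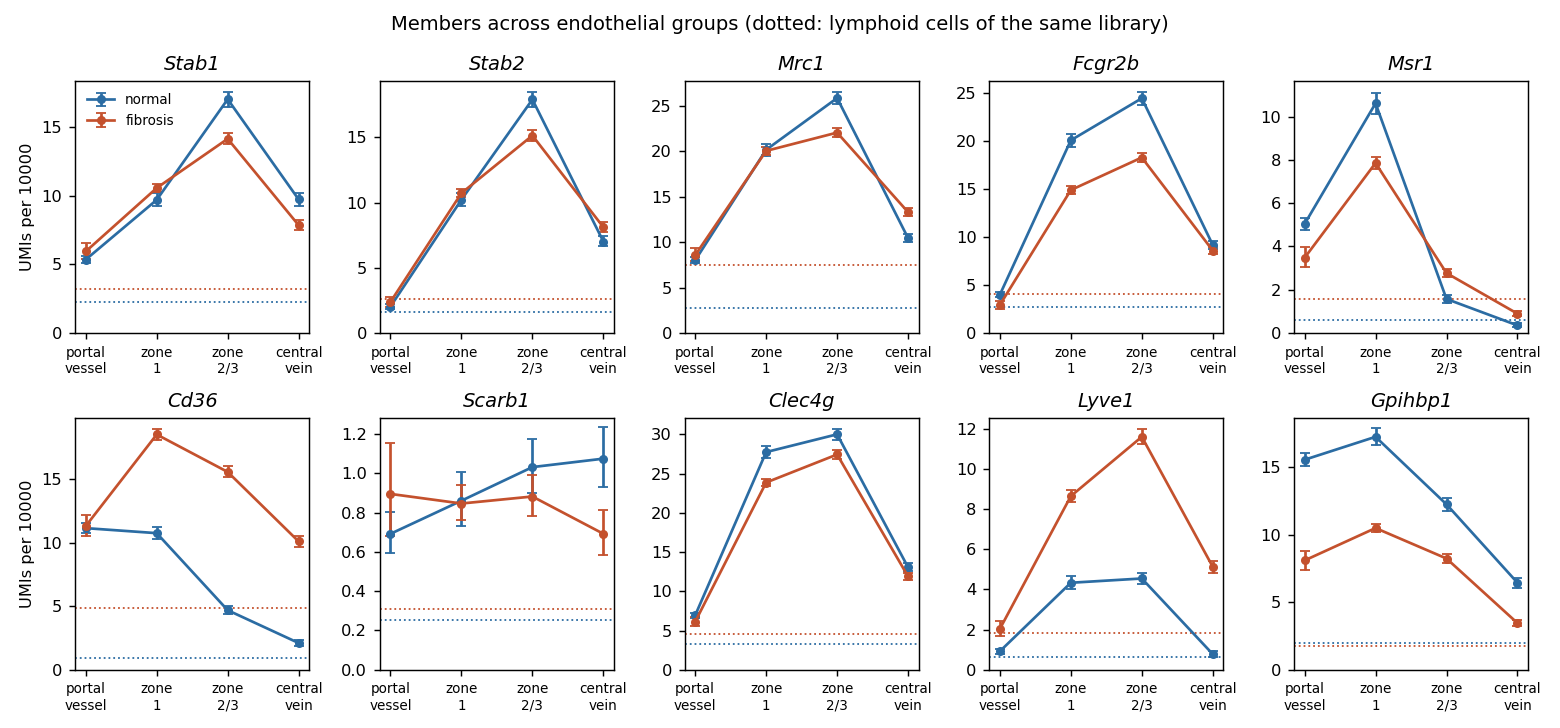
Level of each receptor (UMIs per 10000, y axis from 0) in portal vessel-like, zone 1-like, zone 2/3-like and central vein-like cells of both libraries, with 95% counting intervals as bars and the lymphoid level of the same library dotted. Msr1 was 10.6 in zone 1-like and 1.57 in zone 2/3-like cells of the normal library, while Stab2 was 10.2 and 17.9.

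Toward the vessels, most receptors were lower than in the neighbouring sinusoidal zone. In portal vessel-like cells, 6 receptors were at most 0.5 times their zone 1-like level in the normal library and 6 in the fibrosis library, where 4.07% of 4472 and 4.25% of 4614 genes were. They were Stab2, Mrc1, Fcgr2b, Msr1, Clec4g and Lyve1 in both. Stab2 had the lowest ratio in the normal library, 0.198 (0.179 to 0.219), with 10.2 UMIs per 10000 in zone 1-like and 2.02 (95% interval 1.85 to 2.21) in portal vessel-like cells, and the latter is near the 1.64 of lymphoid cells. Gpihbp1, a gene of capillary endothelium in many organs, was 17.3 and 15.6 (95% interval 15.1 to 16.1), with a ratio of 0.902 (0.8598 to 0.946). Cd36 was 10.7 and 11.1 (95% interval 10.7 to 11.6), a ratio of 1.04 (0.978 to 1.099). Portal vessel-like cells were thus as high as zone 1-like LSECs for Cd36 in the normal library, and in the fibrosis library their ratio was 0.611 (0.566 to 0.659).

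In central vein-like cells, 7 receptors of the normal library were at most 0.5 times the zone 2/3-like level, where 2.62% of 4395 genes were, and 5 of the fibrosis library, where 1.05% of 4389 were. Lyve1 had the lowest ratio in the normal library with 0.171 (0.142 to 0.203), from 0.775 (95% interval 0.654 to 0.912) UMIs per 10000 in central vein-like cells. In fibrosis, Msr1 had the lowest with 0.323 (0.275 to 0.377). Scarb1 alone was not lower in the normal library, with 1.04 (0.857 to 1.27). Central vein-like cells were drawn from 2 sub-clusters in the normal library, 205 cells led by Plppr5, Lhx6 and Rspo3 and 94 cells led by Fmo2, Cyp1b1 and Fndc1, which differed in the receptors. Clec4g was 17.6 in the first and 4.85 in the second, and Mrc1 14.7 and 2.84 UMIs per 10000. Fcgr2b was 12.5 and 3.23 and Stab2 10.2 and 1.26. The first sub-cluster alone had each of these above 0.5 times its zone 2/3-like level, so the count of 7 rests in part on the second. The 225 fibrosis cells formed 1 sub-cluster led by Rspo3, Nts and Wnt9b, with 11.9 for Clec4g and 13.3 for Mrc1.

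Among all endothelial sub-clusters the receptors varied to very different degrees. Scarb1 varied least in both libraries, between 0.473 and 1.11 UMIs per 10000 over 12 normal sub-clusters and between 0.692 and 1.16 over 10 fibrosis sub-clusters. Stab2 varied most in the normal library, between 0.236 (2 UMIs) in 14 portal vessel-like cells led by Sfrp1, Nkx2-3 and Mgp and 18.3 in 192 zone 2/3-like cells led by Rab3b, Gatm and Ltc4s. The same 14 cells held the highest normal Cd36 level, 11.9, beside the lowest levels of Fcgr2b, Clec4g, Lyve1 and Gpihbp1. In the fibrosis library, 40 cells without a zone name led by Kcne3, Esm1 and Kcnj8 held the highest levels of Cd36, 22.9, and of Lyve1, 19.04. In the normal library the highest Lyve1 level, 8.91, was in 273 unnamed cells led by Esm1, Abcc9 and Cxcl9.

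Between the libraries, Cd36 and Lyve1 were higher in fibrosis LSECs, and Gpihbp1 and Fcgr2b were lower per 10000 UMIs. In zone 2/3-like LSECs Cd36 was 4.68 (95% interval 4.399 to 4.98) in the normal library and 15.6 (95% interval 15.1 to 16.00) UMIs per 10000 in the fibrosis library, and the ratio was 3.32 (3.105 to 3.56). Lyve1 was 4.54 (95% interval 4.26 to 4.84) and 11.6 (95% interval 11.2 to 11.98), a ratio of 2.55 (2.38 to 2.74), and 1.77 with the receptors among the variable genes. These were 2 receptors of 10 at least 2-fold higher, where 3.16% of 4436 genes were. In zone 1-like LSECs 0 receptors were past 2-fold in either direction, where 7.01% of 4493 genes were. Lyve1 lay just inside the limit there, at 4.33 and 8.65 UMIs per 10000 with a ratio of 1.996 (1.85 to 2.16), and 7 of 13 alternatives put it or Cd36 past 2-fold, while with the receptors among the variable genes it was 1.24. Cd36 was 10.7 and 18.5, a ratio of 1.72 (1.64 to 1.81). Of the 1682 normal LSEC-like cells, 1084 had no zone name, and over all LSEC-like cells the ratios were 2.49 (2.42 to 2.57) for Cd36 and 1.97 (1.899 to 2.04) for Lyve1.

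The other receptors of LSECs spanned a narrower range. Gpihbp1 was 17.3 in normal and 10.5 UMIs per 10000 in fibrosis zone 1-like cells, with ratios of 0.608 (0.581 to 0.637) there and 0.673 (0.637 to 0.7102) in zone 2/3-like cells. Fcgr2b had 0.742 (0.712 to 0.773) and 0.748 (0.7202 to 0.776). Both were thus lower in the fibrosis library in each zone, by less than 2-fold, although Fcgr2b counted per cell had 1.02 in zone 2/3-like cells. Stab1 had ratios of 1.09 (1.03 to 1.15) and 0.831 (0.795 to 0.868) and Stab2 of 1.05 (0.993 to 1.11) and 0.846 (0.8104 to 0.883). Mrc1 had 0.994 (0.956 to 1.03) and 0.853 (0.823 to 0.884). Clec4g had 0.8602 (0.831 to 0.8903) and 0.914 (0.885 to 0.944), and Scarb1 0.983 (0.811 to 1.197) and 0.855 (0.714 to 1.02). Msr1 differed in direction between zones, with 0.7402 (0.699 to 0.784) in LSECs of zone 1 and 1.76 (1.55 to 2.002) in those of zone 2/3, and the latter value ranged from 0.7496 to 3.18 over the alternatives, the lowest with the receptors among the variable genes. Under the alternatives Stab1, Stab2, Mrc1, Msr1, Scarb1 and Clec4g also had zone 1-like ratios on both sides of 1. The zone 2/3-like ratios of Stab1, Stab2, Mrc1, Scarb1 and Clec4g were above 1 when counted per cell, from 1.13 to 1.25.

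The lymphoid background differed between the libraries for the same genes. In lymphoid cells Cd36 was 0.949 (95% interval 0.871 to 1.03) UMIs per 10000 in the normal library and 4.88 (95% interval 4.64 to 5.12) in the fibrosis library, and the ratio was 5.14 (4.66 to 5.67). Lyve1 had 2.96 (2.59 to 3.38), Mrc1 2.69 (2.52 to 2.86) and Msr1 2.66 (2.31 to 3.05). These 4 of the 9 receptors that reached the minimum in lymphoid cells were at least 2-fold higher, where 7.51% of 4861 genes were. With the lymphoid level subtracted from both libraries, the Cd36 ratio was 1.39 in zone 1-like and 2.86 in zone 2/3-like LSECs, and the Lyve1 ratio 1.83 and 2.49. Depth differed as well, with medians of 6486.5 and 7925.5 UMIs per zone 1-like cell. Counted per cell in place of per 10000 UMIs, the zone 1-like ratio was 2.22 for Cd36 and 2.57 for Lyve1.

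**Figure D3:**
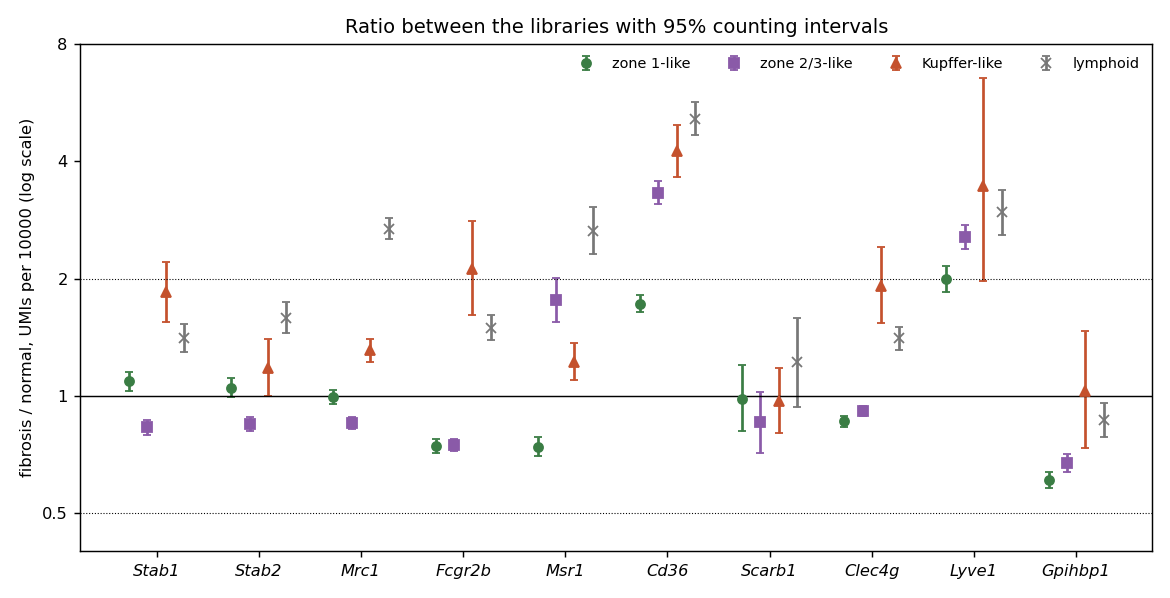
Ratio of the fibrosis over the normal library for each receptor (log axis) in zone 1-like LSECs, zone 2/3-like LSECs, Kupffer-like cells and lymphoid cells, with 95% counting intervals. Cd36 lay above 1 in all 4 groups, from 1.72 in zone 1-like to 5.14 in lymphoid cells, and Gpihbp1 lay below 1 in both LSEC zones.

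Of the vessel-like groups, central vein-like cells had the larger ratios for Lyve1 and Cd36. In central vein-like cells 3 receptors were at least 2-fold higher in the fibrosis library, Lyve1 with 6.61 (5.56 to 7.91), Cd36 with 4.801 (4.31 to 5.36) and Msr1 with 2.53 (1.91 to 3.401), where 4.48% of 4577 genes were. Levels were 2.102 and 10.1 UMIs per 10000 for Cd36 and 0.775 and 5.13 for Lyve1, whose normal level lies near the 0.627 of normal lymphoid cells. The level of Msr1, 0.353 and 0.894, was below the pooled lymphoid level in both libraries, where the lymphoid clusters ranged from 0.257 to 0.946 and from 1.05 to 2.89. In portal vessel-like cells Lyve1 was the 1 receptor past 2-fold with 2.21 (1.78 to 2.75), where 4.54% of 4666 genes were, and Cd36 had 1.01 (0.935 to 1.101). Those Lyve1 levels, 0.919 and 2.03, lie close to the 0.627 and 1.85 of lymphoid cells, whose ratio was 2.96. Gpihbp1 was lower in both vessel groups, with 0.536 (0.489 to 0.588) and 0.5204 (0.475 to 0.5698).

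LSEC-like cells held more of most receptors than Kupffer-like cells. In the normal library 8 receptors were at least 2-fold higher in LSEC-like cells, where 23.8% of 4787 genes were, and in the fibrosis library 7 were, where 22.1% of 4852 were. The largest ratio was that of Lyve1 with 41.5 (24.7 to 75.96) in the normal library, from 5.17 in LSEC-like to 0.125 UMIs per 10000 in Kupffer-like cells. Msr1 differed least, with 4.87 and 4.12 in the normal library and ratios of 1.18 (1.07 to 1.304) and 1.16 (1.09 to 1.23), which counted per cell were 0.775 and 0.982, on the other side of 1. Mrc1 was 22.6 and 10.3, with ratios of 2.201 (2.07 to 2.34) in the normal library and 1.58 (1.53 to 1.64) in the fibrosis library, and the normal ratio was past 2-fold in 9 of 12 alternatives and 1.44 per cell. Scarb1 was the receptor higher in Kupffer-like cells, at 1.45 (95% interval 1.24 to 1.69) against 0.906 (95% interval 0.844 to 0.9705) in the normal library, with ratios of LSEC-like over Kupffer-like of 0.624 (0.527 to 0.743) and 0.621 (0.546 to 0.708).

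Part of what Kupffer-like cells held can be set beside the endothelial RNA they carry. Their 17 endothelial markers summed to 5.36% of the LSEC-like level in the normal library and 7.26% in the fibrosis library, and the LSEC-like level of each receptor, scaled by that share, gives the level that endothelial RNA alone would reach. Msr1 was 15.8 times this level in the normal library and 11.9 times in the fibrosis library. Mrc1 was 8.48 and 8.69 times, and Scarb1 29.9 and 22.2 times. These 3 and Cd36, at 4.52 and 5.68 times, were well above it. Stab1 was 1.89 and 2.97 times and Stab2 2.23 and 2.201 times. Fcgr2b (0.484 and 1.02), Clec4g (0.599 and 0.924), Lyve1 (0.4497 and 0.582) and Gpihbp1 (0.621 and 0.658) were at most 1.02 times it.

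Between the libraries, Cd36 was the receptor that differed most in Kupffer-like cells among those that reached the minimum. It was 1.71 (95% interval 1.48 to 1.97) UMIs per 10000 in the normal library and 7.25 (95% interval 6.91 to 7.601) in the fibrosis library, and the ratio was 4.24 (3.65 to 4.95), and between 3.12 and 5.23 over the alternatives. After thinning, 12.1% (7.24 to 18.7) of normal and 51.2% (44.7 to 57.7) of fibrosis Kupffer-like cells held a Cd36 UMI, beside 6.83% and 37.3% of lymphoid cells, at median depths of 7920 and 9636 in Kupffer-like and 3143 and 2368.5 in lymphoid cells. The lymphoid share was thus higher in the fibrosis library as well, and with the lymphoid level subtracted the Cd36 ratio of Kupffer-like cells was 3.12. Lymphoid clusters had Cd36 at 0.338 to 1.58 UMIs per 10000 in the normal and 2.97 to 9.91 in the fibrosis library, so 1 fibrosis cluster, of 231 cells with a median of 1494 UMIs, was above the Kupffer-like level. Fcgr2b was past 2-fold as well, at 0.579 and 1.22 with 2.12 (1.61 to 2.81), but these levels were 0.484 and 1.02 times the scaled LSEC-like level and below every lymphoid cluster of the same library, NK/T clusters included. These were 2 of the 8 receptors that reached the minimum, where 4.24% of 4008 genes were at least 2-fold higher. Stab1 was 1.43 (95% interval 1.22 to 1.67) and 2.64 (95% interval 2.44 to 2.85), a ratio of 1.84 (1.55 to 2.204). With endothelial RNA subtracted the ratio was 2.597. Both levels lay within the range of the lymphoid clusters, 1.05 to 3.75 in the normal and 2.11 to 6.22 in the fibrosis library, and below the pooled 2.27 and 3.196. Stab2, with 1.18 (0.997 to 1.401), was 1.73 and 2.04 within the 0.805 to 2.62 and the 1.69 to 5.77 of the lymphoid clusters. Mrc1 had 1.31 (1.22 to 1.402) and Msr1 1.22 (1.099 to 1.37), and 1.31 and 1.197 with endothelial RNA subtracted. With the pooled lymphoid level subtracted they were 0.795 and 0.982. Mrc1 was over 1 in 10 of 11 alternatives and Msr1 in 9 of 11. Clec4g, also below every lymphoid cluster, had 1.92 (1.54 to 2.41) and Scarb1 0.9702 (0.802 to 1.18). Gpihbp1 and Lyve1 were under 0.5 UMIs per 10000 in both libraries.

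**Figure D4:**
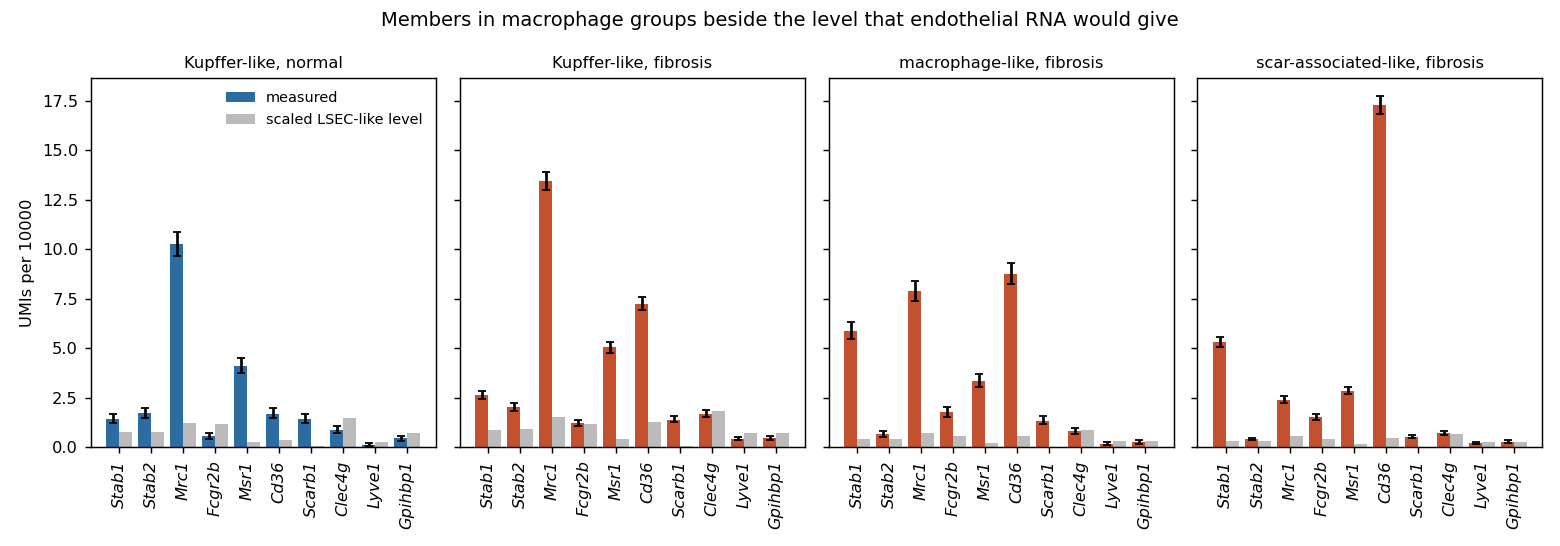
Level of each receptor (UMIs per 10000, y axis) in macrophage groups of each library (coloured bars, with 95% counting intervals), beside the LSEC-like level scaled by the endothelial markers in that group (grey bars). In normal Kupffer-like cells Mrc1 was 10.3, which is 8.48 times the grey bar, and in fibrosis scar-associated-like cells Cd36 was 17.3, which is 36.5 times it.

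The fibrosis library held further macrophage groups in which Stab1 was higher and Mrc1 lower than in Kupffer-like cells. In 153 scar-associated-like macrophages, led by genes that include Fabp5 and Atp6v0d2, Cd36 was 17.3 (95% interval 16.8 to 17.7) UMIs per 10000 against 7.25 in Kupffer-like cells of the same library, a ratio of 2.38 (2.26 to 2.51). Stab1 was 5.298 (95% interval 5.05 to 5.56) against 2.64, a ratio of 2.01 (1.83 to 2.203). These were 2 of the 8 receptors that reached the minimum at least 2-fold higher, where 7.26% of 4048 genes were, and 4 were at most 0.5 times, where 14% were. Mrc1 was among the latter with 0.1798 (0.166 to 0.195), from 2.41 against 13.4, and Scarb1 with 0.378 (0.312 to 0.456). Fibrosis lymphoid clusters ranged from 5.36 to 12.9 for Mrc1, all above these cells, and from 2.11 to 6.22 for Stab1, a range that holds the Stab1 level of these cells. The endothelial markers of these cells were 2.69% of the LSEC-like level, and Stab1 was 16.1 times and Cd36 36.5 times the scaled LSEC-like level. In 72 further macrophage-like cells led by Cd207, Slco2b1 and Olfml3, Stab1 was 5.88 (95% interval 5.47 to 6.33), a ratio of 2.23 (2.001 to 2.48) to Kupffer-like cells, and the 1 receptor at least 2-fold higher, where 3.25% of 3971 genes were, while Stab2 (0.333 (0.261 to 0.4201)) and Clec4g (0.473 (0.376 to 0.589)) were at most 0.5 times, where 5.09% were. This Stab1 level too lay within the lymphoid range, and no alternative was run for either group. Their Cd36 was 8.75 and their Mrc1 7.88.

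The cells that took the Ly6c monocyte name differed between the libraries in their markers. The 8 Ly6c monocyte markers summed to 108 UMIs per 10000 in the normal and 27.01 in the fibrosis cells, and the 8 scar-associated macrophage markers to 17.3 and 80.4, so values of the receptors are given for each group and not compared. In Ly6c monocyte-like cells Stab1 was 0.716 (95% interval 0.504 to 0.987) UMIs per 10000 in 77 normal cells led by Slpi, Cd209a and F13a1 and 6.52 (95% interval 6.100 to 6.95) in 125 fibrosis cells. The latter came from 99 cells led by Cbr2, F13a1 and Ang with 7.25 and 26 led by Vcan, Stxbp6 and Ly6c2 with 1.69, so the fibrosis value rests on the former. Cd36 was 0.503 (95% interval 0.329 to 0.737) and 4.87 (95% interval 4.51 to 5.25), within the 0.338 to 1.58 and the 2.97 to 9.91 of the lymphoid clusters, and 2.05 and 5.36 times the scaled LSEC-like level. Fcgr2b was 2.69 (95% interval 2.26 to 3.18) in the normal cells against 0.579 in normal Kupffer-like cells, beside 0.998 to 4.41 in the normal NK/T clusters. B cells, part of the lymphoid pool, carry this receptor, so the pooled value is not set beside it here. The normal B cluster itself had 2.08, within the range of those NK/T clusters. In fibrosis, 97 myeloid cells without a name, led by Saa3, Slpi and Fn1, held the highest myeloid Cd36 level of all, 22.8 UMIs per 10000. A further 51 normal myeloid cells were led by Tmem119, Mmp13 and Mmp12. Their clustering label was scar-associated, but the 8 scar-associated markers summed to 14.4 UMIs per 10000 in them, below the 17.3 of normal Ly6c monocyte-like cells, and they are left without a name. Their Cd36 was 1.22 and their Stab1 3.13. In patrolling monocyte-like cells (37 normal and 75 fibrosis), 8 receptors were at least 2-fold higher in the fibrosis library, where 19.1% of 4633 genes were, and their endothelial markers were at 4.27% of the LSEC-like level in the normal library and 11.8% in the fibrosis library. The part of that RNA in the 8 ratios was not tested.

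Genes of related pathways gave a background for these ratios. Of 66 genes of 6 lists (other scavenger receptors, lectins, Fc receptors, hyaluronan handling, lipoprotein handling and endocytic machinery), 65 were listed. In zone 1-like LSECs 2 of 5 lipoprotein genes and 1 of 5 other scavenger receptors that reached the minimum were at least 2-fold higher in the fibrosis library and 1 of 7 lectins was at most 0.5 times, and in zone 2/3-like LSECs 1 of 2 hyaluronan genes was added to these. Over all genes, 3.38% were at least 2-fold higher and 3.63% at most 0.5 times in zone 1-like LSECs, and 3.16% and 3.9% in zone 2/3-like LSECs. Marco, a class A scavenger receptor of macrophages, was 0.0619 in the normal library and 1.47 UMIs per 10000 in the fibrosis library, and the ratio was 23.7, beside 21.5 in lymphoid cells. Lpl, lipoprotein lipase, had 12.9, beside 18.2 in lymphoid cells. Both were thus as far apart in cells that should lack them. Lrp1, an endocytic receptor for remnant lipoproteins, had 2.76 against 3.25 in lymphoid cells, Asgr1, a hepatocyte receptor, 0.243 against 0.282, Cd93 1.69 against 2.56 and Pla2r1 0.663 against 1.31. In zone 2/3-like LSECs Marco had 20.1, Lpl 13.5, Lrp1 2.24, Asgr1 0.213 and Pla2r1 0.526. Cd44, the main hyaluronan receptor of leukocytes, had 4.800 there, from 0.106 to 0.511 UMIs per 10000.

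In Kupffer-like cells 2 of 6 lectins, 1 of 8 other scavenger receptors and 1 of 8 genes of the endocytic machinery were at least 2-fold higher, and 1 of the scavenger receptors was at most 0.5 times, where 4.24% and 3.87% of all genes were. Marco was 3.49 in the normal library and 25.5 UMIs per 10000 in the fibrosis library, and the ratio was 7.32. Cd163, the receptor for haptoglobin-haemoglobin complexes, was 7.73 and 3.79, a ratio of 0.4903. Colec12 had 3.07, Igf2r 2.46 and Tmem2 1.91. Cd93 had the largest ratio, 11.2, from 6 and 143 UMIs. Its levels were 0.0534 and 0.597 UMIs per 10000, beside 4.19 and 7.06 in zone 1-like LSECs. The part of endothelial RNA in this ratio was not tested. The Fc receptor list, with 5 of 5 genes at the minimum, had 0 genes past 2-fold and a median ratio of 0.839, and the endocytic machinery list had a median of 1.18, beside a median of 1.09 over all 4008 genes.

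Across 36 cell groups of both libraries, the genes whose pattern lay closest to each receptor were as follows, as a description of groups that share libraries and background RNA. Clec4g was closest to Kdr (0.9898), Oit3 (0.988) and Gpr182 (0.986) by Pearson's r of log2 levels, all 3 of them markers used to name the endothelial groups. Stab2 was closest to Flt4 (0.957), Bmp2 (0.953) and Tfpi (0.949). Gpihbp1 was closest to Npr1 (0.974), Cldn5 (0.974) and Ushbp1 (0.9696), and Lyve1 to Hspg2 (0.937), Tfpi (0.937) and Adam23 (0.935). Bmp2, Cldn5 and Adam23 are naming markers as well. Stab1 was closest to Nrp1 (0.911), Nrp2 (0.909) and Ap1b1 (0.905), Mrc1 to Cd38 (0.9505), Gatm (0.9297) and Pitpnc1 (0.919) and Fcgr2b to Tpbgl (0.926), Plxnc1 (0.924) and Gm10605 (0.922), where Gatm and Plxnc1 are zone 2/3 markers. Msr1, Cd36 and Scarb1 had lower values. They were closest to Glul (0.845), Rin2 (0.833) and Tmem106a (0.757) for Msr1, Sgk1 (0.876), Nus1 (0.861) and Glul (0.859) for Cd36 and Hfe (0.865), Acer3 (0.842) and Tmem51 (0.783) for Scarb1.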

How the data were processed

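Non-parenchymal liver cells of 1 normal and 1 fibrotic mouse were sequenced as 1 10x library each. The authors aligned reads to mm10 with Cell Ranger 3.0.1 and deposited UMI counts per gene and cell, not normalized. The study's filter was applied (under 10% mitochondrial UMIs, over 200 genes). Each library was clustered on its own with scanpy 1.11.5 in Python 3.11.15 (2000 variable genes, 10 principal components, 20 neighbours, Leiden resolution 0.8), and endothelial and myeloid cells were clustered again. Neither the receptors nor the related genes entered the variable genes or the naming. A cluster took the marker list with most members among its 10, then 50, leading genes. At least 3 had to be among the 50, and at least 3 higher than in the other cells. For endothelial and myeloid sub-clusters most of the list had to be higher, and lists of other cell classes could take the name. Shallow clusters without a leading marker stayed unnamed. Naming details were set with the data in view, and names rebuilt here may differ from the study's. Doublets were not removed, since the methods state that the authors had excluded them with Scrublet. Scrublet called 1 cell in each deposited table. The summed UMIs per 10000, exact intervals and a limit of 3 UMIs for a count of 0 came from scipy 1.17.1. Groups with 1 library allow no test, and counting intervals do not cover differences between mice. The scripts were tested on simulated data. Named genes are the 10 receptors, up to 6 related genes with the largest log2 ratio per comparison between libraries, and 3 genes per receptor with the closest pattern (log2 of level plus 0.01, genes with at least 1 UMI per 10000 in any group). Genes named as leading a sub-cluster were read off the clusters. The receptors, lists and comparisons were chosen with earlier results of these data known. Alternatives changed 1 choice at a time. Positions are from GENCODE M21 (GRCm38).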

Additional observations from a re-analysis of the deposited data

Results flagged for a closer look

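The ratio of the fibrosis over the normal library pointed to opposite sides of 1 in 2 cell groups, each beyond counting error, for 5 receptors. Of the 8 receptors that reached the minimum in zone 1-like, zone 2/3-like and Kupffer-like cells these were 5, and of 3114 genes that did, 5.33% pointed to opposite sides in the same way, without matching on level, which sets the width of the intervals. With 1 library per condition these differences were not tested. Counted per cell, zone 2/3-like ratios were above 1 for Stab1 (1.13), Mrc1 (1.16), Fcgr2b (1.02) and Clec4g (1.25). The zone 1-like ratio counted in that way was 0.955 for Fcgr2b and 1.11 for Clec4g. Stab1 had 1.09 in zone 1-like and 0.831 in zone 2/3-like LSECs, and 1.84 in Kupffer-like cells, whose levels lay within the range of the lymphoid clusters and whose ratio was 2.597 with endothelial RNA subtracted. The zone 1-like value of Stab1 lay between 0.858 and 1.401 over the alternatives. Mrc1 had 0.853 in zone 2/3-like LSECs and 1.31 in Kupffer-like cells, and the latter was 0.795 with the lymphoid level subtracted, where the lymphoid ratio was 2.69, and 1.31 with endothelial RNA subtracted. Msr1 had 0.7402 in zone 1-like LSECs, 1.76 in zone 2/3-like LSECs and 1.22 in Kupffer-like cells. Its zone 2/3-like value was 0.7496 with the receptors among the variable genes, its zone 1-like value 1.06 with zones set per cell and its Kupffer-like value 0.982 with the lymphoid level subtracted. Fcgr2b had 0.742 and 0.748 in the LSEC zones and 2.12 in Kupffer-like cells, and Clec4g 0.8602, 0.914 and 1.92. Kupffer-like levels of Fcgr2b and Clec4g were at most 1.02 times the level that their endothelial RNA would give, 0.484 and 1.02 times it for Fcgr2b and 0.599 and 0.924 times it for Clec4g.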

How the results depend on the processing

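The number of receptors past 2-fold between LSEC-like and Kupffer-like cells stayed between 7 and 9 in both libraries over 13 alternatives, and that in zone 2/3-like LSECs between the libraries at 2 or 3 over 11. With the receptors among the variable genes those 2 were Cd36 and Gpihbp1, and Lyve1 had 1.77. In zone 1-like LSECs the 0 receptors became 2 per cell, 1 without a mitochondrial limit, without the top 5% of Scrublet scores, without the 3 cells with most UMIs of the gene, as a mean of the cells' own fractions, with zones set per cell and without the zone 1-like sub-cluster that carries portal vessel markers (an alternative chosen after seeing the data), and 3 at a 1.5-fold limit. In Kupffer-like cells the 2 receptors became 4 per cell, with a mitochondrial share under 5%, as a mean of fractions and at the 1.5-fold limit, and 1 without a mitochondrial limit, at resolution 0.4, with the receptors among the variable genes, without the top Scrublet scores and with the lymphoid level subtracted. Between the normal zones, 2 became 1 without a mitochondrial limit, with the receptors among the variable genes and with zones set per cell, and 4 at the 1.5-fold limit. Between the fibrosis zones, 1 became 2 with the receptors among the variable genes, by Lyve1. The cause of these changes was not tested. Of 792 recomputed gene ratios, 429 stayed within the counting interval of the value reported, and 66 lay on the other side of 1. Of these 66, 65 belonged to ratios short of 2-fold. The other was Fcgr2b in Kupffer-like cells, 0.796 with endothelial RNA subtracted, but its normal level after subtraction was below 0 and was replaced by the limit of 3 UMIs, so this value says nothing of direction. The same limit sets the value of Stab2 with the lymphoid level subtracted, 0.147. Subtracting endothelial RNA was chosen after seeing the data, as was the use of LSEC-like cells with a zone name. Cells without a UMI of 6 other-lineage genes gave a value only between the normal zones (36 and 43 cells). The other groups kept 0 to 2 cells, apart from 238 normal LSEC-like cells. The minimum of 20 cells, and the rule that 2 values at the limit of 3 UMIs give no ratio, were set after those values were seen. A mitochondrial share under 5% left no fibrosis zone 2/3-like group. No paired analysis was possible because each condition has 1 library and the labels carry no replicate numbers. Depth limits the groups of fewest cells and the receptors under 0.5 UMIs per 10000 in Kupffer-like cells, Lyve1 and Gpihbp1.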

Other observations

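Receptors were also counted in groups that are neither endothelial nor macrophage. In mesenchymal-like cells Lyve1 was 1.92 (95% interval 1.75 to 2.11) UMIs per 10000 in 226 normal and 2.88 (95% interval 2.78 to 2.97) in 573 fibrosis cells, and Stab1 3.84 (95% interval 3.59 to 4.09) and 3.64 (95% interval 3.53 to 3.75). The 17 endothelial markers of these cells were 30.8% and 30.01% of the LSEC-like level. In the fibrosis library, 633 erythroid-like cells with a median of 998 UMIs had endothelial markers at 44.2% of that level, and their Mrc1 was 16.3 and their Clec4g 11.3 UMIs per 10000.

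In each library 1 myeloid sub-cluster was led by endothelial genes. The 44 normal cells (Lama4, Auts2 and Nova2 leading) had Clec4g at 7.64 and Stab2 at 4.69 UMIs per 10000, with endothelial markers at 36.5% and macrophage markers at 50.3% of the LSEC-like and Kupffer-like levels. The 131 fibrosis cells (Sox18, Mmrn2 and Cxcl9 leading) had Clec4g at 12.6, Stab2 at 7.18 and Lyve1 at 6.17, with 56.6% and 22.1%. Their median depths were 8771 and 15256 UMIs per cell.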
